A study of Homo sapiens with 6 samples.

Results

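SMAD proteins, their antagonists and the SKI family repressors form the part of the TGF-β pathway that carries the signal from the receptor to the genome. The 10 genes described here were chosen by name as this core: SMAD2 and SMAD3, which the receptor phosphorylates, SMAD4, their common partner, the inhibitory SMAD6 and SMAD7, the repressors SKI, SKIL and TGIF1, and the ubiquitin ligases SMURF1 and SMURF2. They are 10 of the 27918 genes and loci in the table, and each was found as 1 row. RNA was sequenced from HCT-116, an established colorectal carcinoma cell line, transfected at 10 nM with an Antisense LNA GapmeR against the lncRNA CASC9 (GapC9, 3 libraries) or with a negative control GapmeR (GapNC, 3 libraries). A GapmeR is an oligonucleotide with a DNA center flanked by locked nucleic acid, and it directs RNase H to the RNA it pairs with. The time from transfection to harvest is given as 24 h in one place and 48 h in another. All values come from this single line, which is known for microsatellite instability and for frameshift changes in TGFBR2, the gene of the type II TGF-β receptor, and whether the 3 libraries of a group came from separate cultures is not stated, so the p-values measure only the spread between these libraries.

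On binding TGF-β, the type II receptor activates the type I receptor, which phosphorylates SMAD2 and SMAD3. These join SMAD4, enter the nucleus and bind short DNA motifs together with other factors, while SKI, SKIL (also called SnoN) and TGIF1 recruit corepressors to the same complexes. SMAD7 and SKIL are known target genes of the pathway that feed back on it, and SMURF1 and SMURF2 are ubiquitin ligases that SMAD7 can bring to the receptor. In colon epithelium the pathway restrains growth, and loss of receptor or SMAD4 function is frequent in colorectal cancer.

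Values are FPKM, fragment numbers scaled to transcript length and library size, so levels of different genes are compared per length. The libraries were of similar size, at about 23.1 to 24.5 M fragments where the most frequent increment among low FPKM is taken as 1 fragment, but depth is otherwise unknown and no counting interval can be given. CASC9 itself was at 0, 0.0108 and 0 FPKM in GapNC and at 0.0528, 0.107 and 0 FPKM in GapC9, so this table does not show the targeted RNA lowered, and the groups are named here by their labels. Of the 11 epithelial markers looked up, 10 were in the table and 6 averaged at least 1 FPKM. Their summed level was 1006 to 1401 FPKM in GapNC and 995.1 to 1261 in GapC9, and CEACAM5 was not in the table. The highest were KRT8, KRT18 and KRT19, with means of 384.0, 363.0 and 325.0 FPKM in GapNC. CDX2 averaged 2.04 FPKM in GapNC and 2.396 in GapC9. In GapNC, KRT20, CDX1, VIL1 and LGR5 averaged 0.279, 0.00778, 0.0084 and 0.0462 FPKM. In GapC9 these averaged 0.167, 0, 0.0242 and 0.0476 FPKM. Fibroblast markers summed to 4.19 to 5.72 FPKM in GapNC and 4.41 to 5.31 in GapC9, and leukocyte, endothelial and adipocyte markers each summed to 0.143 FPKM or less in every library; DCN, LUM and ADIPOQ were not in the table. In a bulk sample, fewer cells with a transcript and less of it per cell cannot be told apart. Base composition set GapNC replicate 1 furthest apart and also differed partly by group. Across 10117 rows, GC content was correlated (Spearman) with the deviation from the row mean. By replicate number, the GapNC correlations were 0.618, 0.013 and −0.101. Those of GapC9 were 0.0215, −0.339 and −0.384. Replicates 2 and 3 of GapC9 thus lay below every GapNC library, whereas its replicate 1 was lower only than GapNC replicate 1. These correlations describe each library, over rows that share its depth. The part of this trend in the group differences was not tested.

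Among the 10 genes, SMAD7 and SKIL were higher in the libraries labelled GapC9 and SKI was lower, while the signal-carrying SMAD2, SMAD3 and SMAD4, together with SMAD6, TGIF1, SMURF1 and SMURF2, passed no threshold. All 10 genes passed the filter of a mean of 0.1 FPKM, and 9 of them averaged at least 1 FPKM. The test was limma on log2(FPKM + 0.1) across 16028 rows. When a call needed mean FPKM at least 2-fold higher and an unadjusted p under 0.05, 2 of the 10 were called higher, against 2.1% of all rows. When it needed a ratio of 0.5 or less and the same p, 1 of the 10 was called lower, against 4.32% of all rows. At an adjusted p under 0.05, the 2 genes called higher were SMAD7 and SKIL, against 1.89% of all rows, and 0 of 10 were called lower, against 5.1%. SKI brought to 3 the number of the 10 genes with an unadjusted limma p under 0.05, which 25.94% of all rows also had. The groups did not overlap, with GapC9 higher, for 2 of the 10 (12.6% of all rows) and, with GapC9 lower, for 1 of the 10 (21.6%). The median log2 difference was 0.15 over the 10 genes and −0.08 over all rows tested, and the median absolute difference was 0.21 over the 10 and 0.33 over all rows. The genes and lists were chosen with earlier results known, so no test was made of the 10 as a group.

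**Figure D1:**
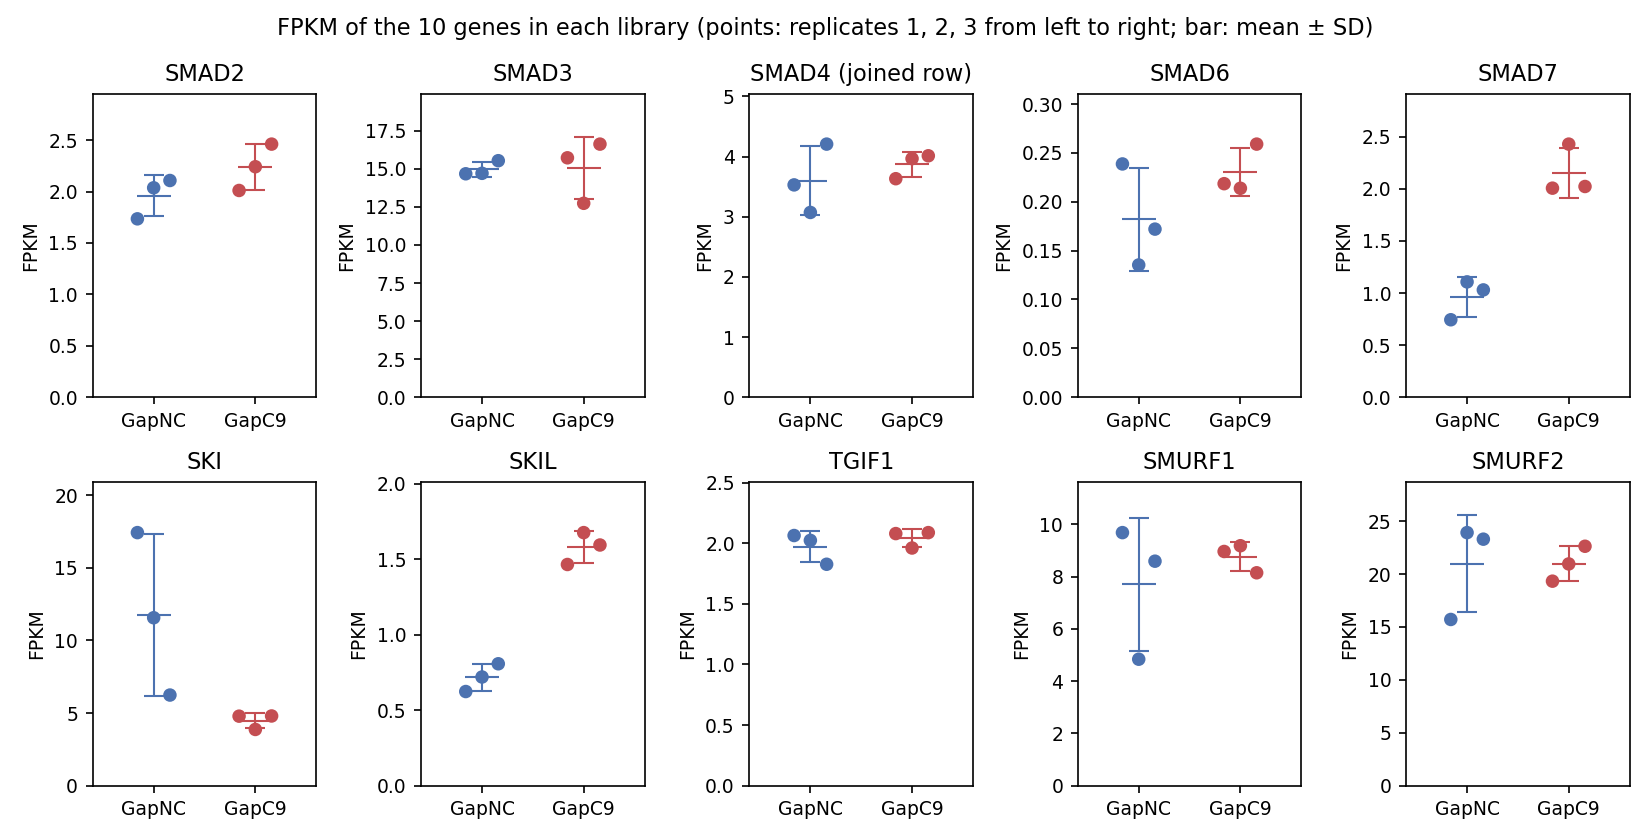
FPKM (vertical axes, linear and starting at 0, a scale for each gene) of the 10 genes in the 3 GapNC (blue) and 3 GapC9 (red) libraries. Points are libraries, replicates 1 to 3 from left to right, and the bars are mean ± SD. The groups separate for SMAD7, SKIL and SKI, and overlap for the other 7 genes.

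The levels of the 10 genes spanned from SMURF2, at a mean of 20.98 FPKM over the 6 libraries, to SMAD6 at 0.206 FPKM. Below SMURF2 came SMAD3 (15.0 FPKM), SMURF1 (8.24), SKI (8.11), SMAD4 (3.74), SMAD2 (2.10), TGIF1 (2.01), SMAD7 (1.56) and SKIL (1.15). SMURF2 was above SMAD3 in 6 of 6 libraries, although their ranges overlapped. The ranges did not overlap at the steps from SMAD3 to SMURF1, from SMAD4 to SMAD2 and from SKIL to SMAD6. At the other steps neighbors overlapped, and SMURF1 was above SKI, and SMAD2 above TGIF1, in 4 of 6 libraries.

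SMAD2 and SMAD3 are the receptor-regulated SMADs of the TGF-β and activin branch. SMAD2 (ENSG00000175387, minus strand, chr18:47808957-47931146 in GRCh38) was at 1.74, 2.04 and 2.11 FPKM in GapNC and at 2.01, 2.24 and 2.46 FPKM in GapC9. The groups overlapped, with the lowest value in GapNC replicate 1 and the highest in GapC9 replicate 3. The fitted difference had a 95% confidence interval from −0.16 to 0.52 on the log2 scale, so an increase of SMAD2 mRNA of more than that upper bound lay outside the interval. With each library's GC trend removed, the values were 1.97, 1.98 and 1.99 FPKM in GapNC and 2.06, 2.14 and 2.304 FPKM in GapC9. These did not overlap (log2 difference 0.13, limma adjusted p = 0.371). The share of all rows whose groups lay apart after this removal was not counted. The row lists 12 annotated transcripts, the longest of 34526 bases, and 1 assembled by the authors, and FPKM depends on how fragments were divided among them. SMAD3 (ENSG00000166949, plus strand, chr15:67063763-67195195) was at 14.7, 14.7 and 15.5 FPKM in GapNC and at 15.7, 12.7 and 16.6 FPKM in GapC9. The GapC9 libraries held both the lowest and the highest value. The interval of its log2 difference ran from −0.31 to 0.31, and the sign changed with the scaling of the libraries. An exon of SMAD3 overlaps AC087482.1 on the opposite strand, and whether the counting used strand is not stated.

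SMAD3 mRNA made up 85.0% to 89.4% of the summed FPKM of SMAD2 and SMAD3 in every library. This share depends on the transcript lengths used, since the longest listed transcripts have 34526 bases for SMAD2 and 6247 for SMAD3. By those lengths, the values rest on 1385 to 2036 fragments a library for SMAD2 and 1953 to 2487 for SMAD3. The ratio of SMAD2 to SMAD3 was 0.118, 0.139 and 0.136 in GapNC and 0.128, 0.176 and 0.148 in GapC9. These groups overlapped, and the mean log2 ratio differed by 0.19 (exact two-sided permutation test, p = 0.3, adjusted p = 0.5 over the 5 ratios tested). With 3 libraries against 3, the smallest p this test can give is 0.1.

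SMAD4, the common partner without which receptor-regulated SMADs form no full transcriptional complex, has no row of its own. Its row joins ELAC1, AC091551.1 and SMAD4 (ENSG00000141646, plus strand, chr18:51028394-51085045), with 15 of its 21 transcripts from SMAD4. It was at 3.53, 3.07 and 4.21 FPKM in GapNC and at 3.63, 3.97 and 4.01 FPKM in GapC9. GapNC held both the lowest and the highest library. The fitted log2 difference was 0.11 (standard error 0.15, 95% confidence interval −0.24 to 0.47, limma adjusted p = 0.669), and a change in SMAD4 cannot be told apart from one in ELAC1. The ratio of this row to SMAD3 was 0.240, 0.209 and 0.271 in GapNC and 0.231, 0.311 and 0.241 in GapC9, an overlap of groups with a log2 difference of 0.12 (exact two-sided permutation test, p = 0.6, adjusted p = 0.75).

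SMAD6 and SMAD7 are the inhibitory SMADs. SMAD7 competes for the TGF-β receptor and recruits SMURF ligases to it, and SMAD6 acts mainly on the BMP branch. The sequences upstream of their starts are shown because SMAD complexes are known to bind the palindrome GTCTAGAC and the shorter CAGAC box. Windows of 300 bases in RefSeq (GRCh38.p14), from 250 before to 50 after each annotated start, were searched on both strands. GTCTAGAC was in 71 of 35116 windows (0.202%) and CAGAC in 45.3% of them. These motifs do not contain each other. RefSeq windows were found for 9 of the 10 genes, 22 windows in all, and no entry was found for SKI. Sequence outside these windows, further upstream of SMAD7 included, was not searched. The palindrome was in a window of 1 of the 9 genes, SMAD6, where it starts 12 bases before the annotated start. It is given in capitals with its surroundings (chr15:66702212-66702235, plus strand), the last 8 of its 24 bases lying in exon 1 of a GENCODE transcript of SMAD6:
SMAD6: agccgccaaagtGTCTAGACtggc

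SMAD7 has 3 windows. The outermost holds 2 CAGAC boxes, 217 and 128 bases before the start, and 13.1% of all windows hold at least 2. Both lie in exon 1 of a GENCODE transcript of SMAD7 that begins further out, on the minus strand at chr18:48951166-48951194 and chr18:48951077-48951105, with the box in capitals:
SMAD7 first box: gccggacgccccCAGACctctgaggttcg
SMAD7 second box: ttcttattttgcCAGACgtctcatgcggg

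The next window, before an inner start and outside any annotated exon (chr18:48949334-48949583, minus strand), has 1 box, 193 bases before the start and on the opposite strand, so its capitals read GTCTG. The last window has 0 boxes. CAGAC boxes were not particular to SMAD7. SMAD3 had 4 in 1 of its 5 windows, and 0.57% of all windows hold at least 4. TGIF1 had 2 in each of 3 of its 7 windows, and SKIL, SMURF1 and SMURF2 had 1 each in their single windows. The windows of SMAD2, SMAD4 and SMAD6 held 0. A match in letters is a description and was not tested for binding. The inner SMAD7 stretch reads:
SMAD7 inner start: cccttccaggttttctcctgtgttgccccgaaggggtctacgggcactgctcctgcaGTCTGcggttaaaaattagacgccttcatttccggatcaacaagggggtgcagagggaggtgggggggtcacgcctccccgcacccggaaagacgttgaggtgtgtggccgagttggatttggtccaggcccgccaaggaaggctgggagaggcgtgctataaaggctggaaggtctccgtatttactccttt

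SMAD7 (ENSG00000101665, minus strand, chr18:48919853-48952052) was at 0.743, 1.11 and 1.03 FPKM in GapNC and at 2.01, 2.43 and 2.02 FPKM in GapC9. Each GapC9 library was above each GapNC library, and the lowest of the 6 was GapNC replicate 1. The ratio of means was 2.24, with a 95% confidence interval of 0.65 to 1.55 for the log2 difference (limma adjusted p = 0.0310). If the longest listed transcript, of 4428 bases, carried the signal, these values rest on 76 to 264 fragments a library. The direction held in each of the 6 fits that left out 1 library, with log2 differences of 0.943 to 1.202. The adjusted p rose above 0.05 in 5 of those 6, reaching 0.117 without GapC9 replicate 2, and was 0.0387 without GapNC replicate 1. SMAD7 is GC-rich, at 58.7% in its longest transcript, and removing each library's GC trend gave 0.558, 1.07 and 1.03 FPKM in GapNC and 2.03, 2.71 and 2.28 FPKM in GapC9, a ratio of 2.64.

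SMAD6 (ENSG00000137834, plus strand, chr15:66702228-66782848) was at 0.239, 0.135 and 0.172 FPKM in GapNC and at 0.219, 0.214 and 0.259 FPKM in GapC9. The groups overlapped, since GapNC replicate 1 was above 2 of the GapC9 libraries. SMAD6 is GC-rich too (58.9%), and with the GC trend removed it was at 0.163, 0.128 and 0.173 FPKM in GapNC and at 0.222, 0.249 and 0.303 FPKM in GapC9. Those groups did not overlap, a trait whose share over all rows was not counted after this removal. The log2 difference was then 0.49 (ratio 1.67, limma unadjusted p = 0.0411, adjusted p = 0.145). As deposited, its log2 difference was 0.24 (standard error 0.22, 95% confidence interval −0.31 to 0.79, limma adjusted p = 0.537). At such low levels, about 17 to 32 fragments a library by its longest transcript, the upper bound still allows a rise of the same order as the lower part of the SMAD7 interval. Within libraries the ratio of SMAD7 to SMAD6 was 3.11, 8.19 and 5.99 in GapNC and 9.19, 11.4 and 7.81 in GapC9. These values overlapped, and the mean log2 ratio was 0.81 higher in GapC9 (exact two-sided permutation test, p = 0.2, adjusted p = 0.5). The smallest p this test can give here is 0.1, so it cannot decide whether the inhibitory SMADs differed in response.

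SKI and SKIL are related corepressors that bind SMAD2, SMAD3 and SMAD4 and hold target genes silent until they are degraded. The promoter of SKIL is shown because SKIL is a known SMAD target. The stretch lies just outside its first exon (chr3:170357465-170357677, plus strand), with a CAGAC box on the opposite strand, 107 bases before the start, whose letters here read GTCTG:
SKIL: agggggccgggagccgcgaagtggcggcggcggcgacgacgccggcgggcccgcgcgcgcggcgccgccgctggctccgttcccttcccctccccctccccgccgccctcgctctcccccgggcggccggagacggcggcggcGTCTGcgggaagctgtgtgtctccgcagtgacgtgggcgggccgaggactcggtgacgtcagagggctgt

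SKIL (ENSG00000136603, plus strand, chr3:170357678-170396835) was at 0.623, 0.719 and 0.807 FPKM in GapNC and at 1.46, 1.68 and 1.59 FPKM in GapC9. The groups lay apart, with a gap from 0.807 to 1.46 FPKM. The ratio of means was 2.20, and the 95% confidence interval of the log2 difference was 0.69 to 1.40 (limma adjusted p = 0.0233). SKIL is AT-rich, at 33.4% GC, and with the GC trend removed it was at 0.831, 0.701 and 0.742 FPKM in GapNC and at 1.495, 1.5 and 1.37 FPKM in GapC9. The ratio of means was then 1.92, below the 2-fold threshold. The groups still did not overlap, though the share of all rows that lay apart after this removal was not counted. Leaving out 1 library in turn gave log2 differences of 0.96 to 1.12, with adjusted p from 0.0351 without GapNC replicate 1 to 0.103 without GapC9 replicate 2, and above 0.05 in 5 of the 6 fits.

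SKI (ENSG00000157933, plus strand, chr1:2228695-2310119) was at 17.4, 11.6 and 6.24 FPKM in GapNC and at 4.78, 3.87 and 4.80 FPKM in GapC9. The groups did not overlap, but GapNC spanned from 6.24 to 17.4 FPKM while the GapC9 libraries lay within 1 FPKM of each other. The ratio of means was 0.382, with a 95% confidence interval of −2.16 to −0.36 for the log2 difference (limma unadjusted p = 0.0142, adjusted p = 0.0992). Without GapNC replicate 1 the ratio was 0.504, which is no longer a call at 2-fold. SKI is GC-rich (59.95%) and was highest in the library with the strongest GC trend, and with that trend removed it was at 13.3, 11.2 and 6.26 FPKM in GapNC and at 4.84, 4.36 and 5.46 FPKM in GapC9, a ratio of 0.477. The part of base composition in the remaining spread was not tested. The SKI row also holds 1 assembled transcript beside its 4 annotated ones.

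SKI was the more abundant of the pair in every library, by a smaller factor in the 3 GapC9 libraries. The ratio of SKIL to SKI was 0.0358, 0.0622 and 0.129 in GapNC and 0.306, 0.433 and 0.332 in GapC9. All 3 GapC9 values were above all 3 GapNC values. This had to follow, since SKIL was higher and SKI lower, each without overlap. The ratio and its p therefore add no separate support. The mean log2 ratio was 2.42 higher, at the smallest p that 3 libraries against 3 allow (exact two-sided permutation test, p = 0.1, adjusted p = 0.5 over 5 ratios). Over the alternatives this difference ran from 1.95, with the GC correction, to 2.90, without GapNC replicate 3. SKIL and SKI differ widely in GC content (33.4% and 59.95%). SKIL made up 3.45%, 5.86% and 11.5% of the summed FPKM of the pair in GapNC and 23.4%, 30.2% and 24.9% in GapC9. The sum itself was 18.04, 12.3 and 7.05 FPKM in GapNC and 6.25, 5.55 and 6.39 FPKM in GapC9, so GapNC replicate 3 came close to the GapC9 libraries in the sum but not in the SKIL share.

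**Figure D2:**
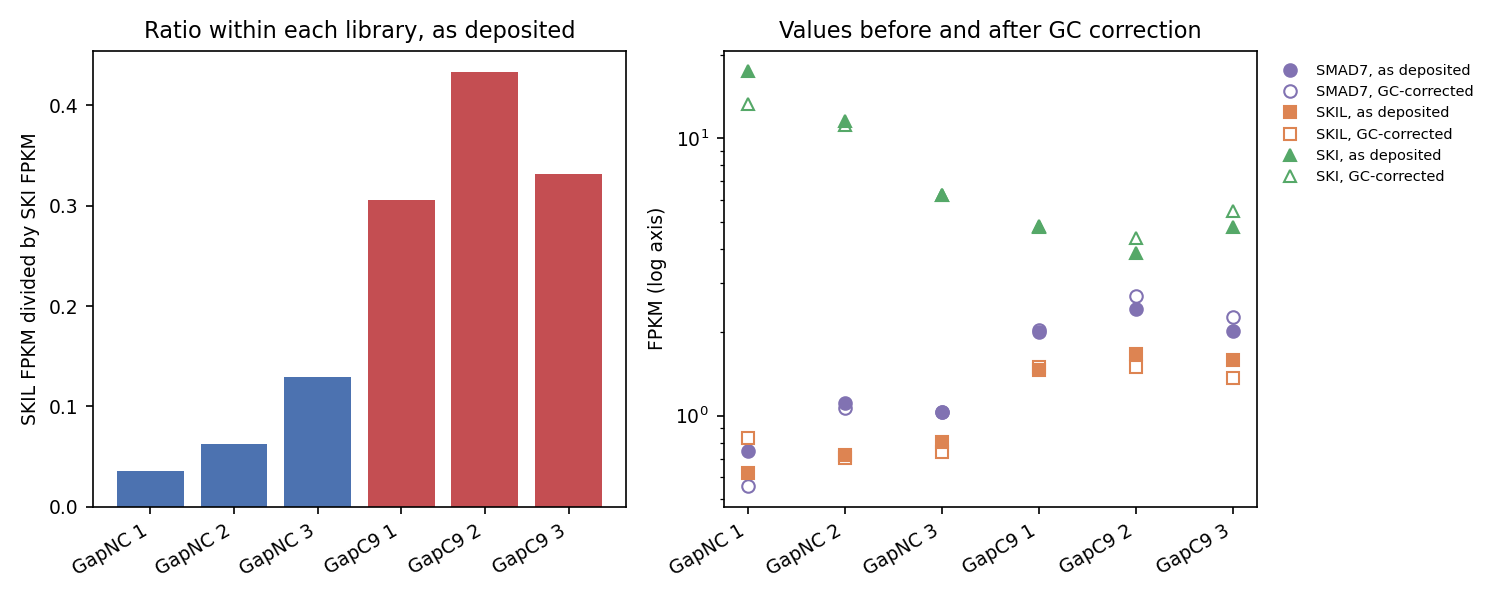
Left, SKIL FPKM divided by SKI FPKM, both as deposited, in each GapNC (blue) and GapC9 (red) library, on a linear axis from 0. The GapC9 bars lie between 0.306 and 0.433 and the GapNC bars between 0.0358 and 0.129, a separation that follows from the values of each gene. Right, FPKM on a log axis of SMAD7 (circles), SKIL (squares) and SKI (triangles), as deposited (filled) and after removal of each library's GC trend (open), where the groups stay apart for all 3 genes. How large a share of all rows stays apart after this removal was not counted.

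TGIF1, a homeodomain protein that binds SMAD2 and brings corepressors to it, passed no threshold. TGIF1 (ENSG00000177426, plus strand, chr18:3411608-3459978) was at 2.06, 2.02 and 1.83 FPKM in GapNC and at 2.08, 1.96 and 2.09 FPKM in GapC9. The ranges overlapped and spanned only 1.83 to 2.09 FPKM. The log2 difference was 0.05 (standard error 0.11, limma adjusted p = 0.818), and its 95% confidence interval of −0.23 to 0.33 does not reach a 2-fold change in either direction.

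SMURF1 and SMURF2 are HECT-type ubiquitin ligases that mark SMADs and, through SMAD7, the TGF-β receptor for degradation. SMURF1 (ENSG00000198742, minus strand, chr7:99027438-99144100) was at 9.69, 4.84 and 8.59 FPKM in GapNC and at 8.97, 9.19 and 8.15 FPKM in GapC9. GapNC replicate 2 was low and the other 5 libraries lay between 8.15 and 9.69 FPKM. The log2 difference was 0.24 (standard error 0.27, 95% confidence interval −0.41 to 0.89, limma adjusted p = 0.610), and it was −0.06 without GapNC replicate 2. With the GC trend removed, SMURF1 was at 8.52, 4.72 and 8.46 FPKM in GapNC and at 9.09, 9.62 and 8.61 FPKM in GapC9. These did not overlap (log2 difference 0.38, limma adjusted p = 0.356), but the share of all rows that then lay apart was not counted. SMURF2 (ENSG00000108854, minus strand, chr17:64542295-64662068) was at 15.7, 23.9 and 23.3 FPKM in GapNC and at 19.3, 20.96 and 22.6 FPKM in GapC9. The GapC9 libraries lay inside the GapNC range, and the log2 difference was 0.02 (standard error 0.19, 95% confidence interval −0.43 to 0.48, limma adjusted p = 0.958). Exons of SMURF1 overlap TRRAP, and exons of SMURF2 overlap CEP95, on the opposite strand. The ratio of SMURF1 to SMURF2 was 0.617, 0.202 and 0.369 in GapNC and 0.464, 0.438 and 0.360 in GapC9, with overlap (log2 difference 0.22, exact two-sided permutation test, p = 0.8, adjusted p = 0.8).

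**Figure D3:**
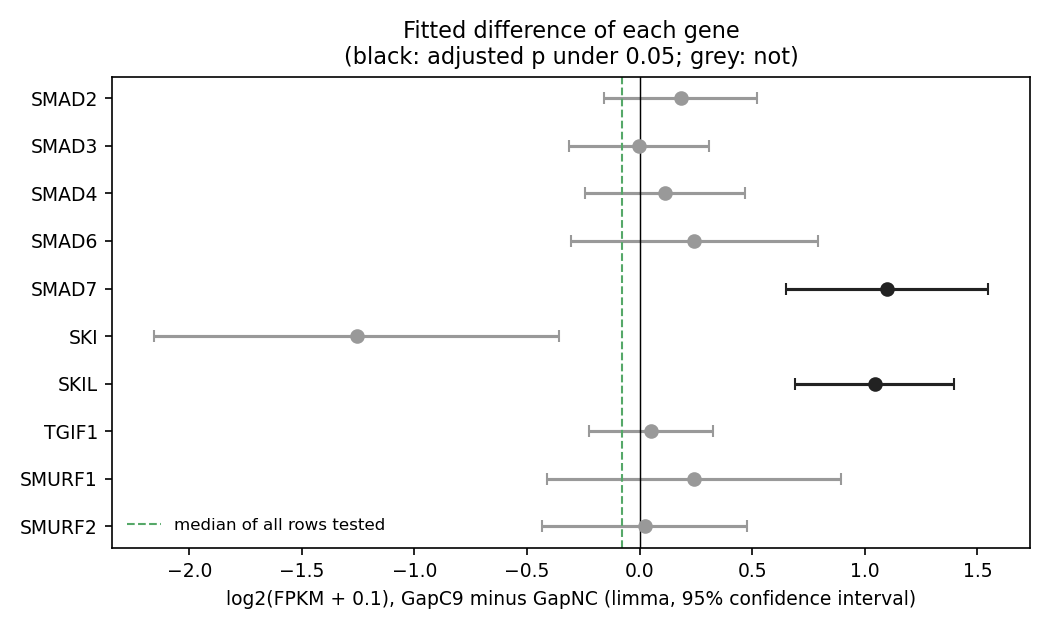
Fitted log2 difference, GapC9 minus GapNC, of each gene (points) with its 95% confidence interval from limma, over 3 libraries a group. Black marks SMAD7 and SKIL, with an adjusted p under 0.05, and the dashed line is the median of all 16028 rows, −0.08. The intervals of the 7 other genes besides SKI include 0.

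**Figure D4:**
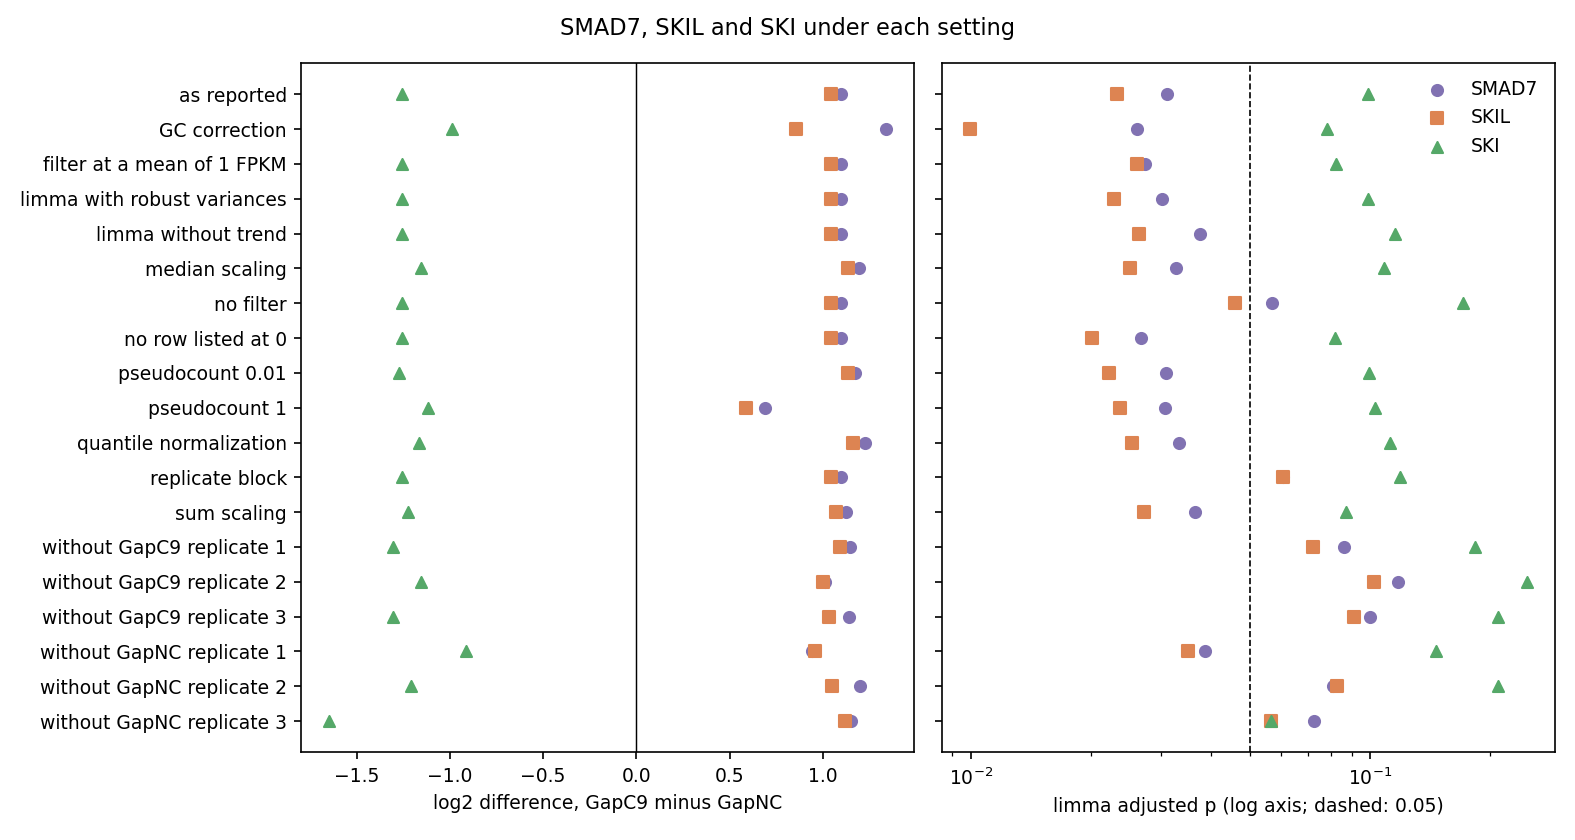
Log2 difference (left) and limma adjusted p (right, log axis, dashed line at 0.05) of SMAD7, SKIL and SKI as reported and under each alternative setting, including each library left out. No setting changed the direction of the 3 genes. Leaving out a library moved SMAD7 to adjusted p of 0.0387 to 0.117 and SKIL to 0.0351 to 0.103.

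Pairing of the GapmeRs with these genes was also read from their spliced transcripts in the GENCODE annotation of GRCh38, since an antisense oligonucleotide can act on partly matched RNAs. Both have 16 bases. The closest site for the CASC9 GapmeR had 4 mismatches in SMAD2, SMAD4, TGIF1 and SMURF1, as few as in 21.3% of 19684 coding genes, and 5 in SMAD3, SMAD6, SMAD7, SKI, SKIL and SMURF2, as few as in 67.3%. For the control GapmeR it had 3 mismatches in SMURF2, as few as in 2.35% of coding genes, 4 in SMAD2 and SMAD7 (20.3%) and 5 in the other 7 genes (70.6%). By the longest unbroken run of pairing the order differed. For the CASC9 GapmeR it was 9 bases in SMAD2, SMAD4 and SKI, as long as in 11.8% of coding genes, 8 in TGIF1 and SMURF1 (43.2%) and 7 in the other 5 genes (78.7%). For the control GapmeR it was 9 bases in SMAD2, SMAD4, SMAD6, SMAD7 and SKIL (14.6%), 8 in SMAD3 and SMURF2 (45.1%) and 7 in SKI, TGIF1 and SMURF1 (84.8%). SKI thus lay among the genes with more mismatches to the CASC9 GapmeR but also among those with the longest run, and the part of such pairing in any difference was not tested. Introns were not searched.

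The rows whose pattern over the 6 libraries was most like SMAD7, SKIL and SKI were ranked by the root mean square difference of centered log2 values among 9094 rows with single gene names, a mean of at least 1 FPKM and no value of 0. For SMAD7 these were the lncRNA LINC02535 (0.0382; mean 0.979 FPKM in GapNC and 2.295 in GapC9), GABPA (0.0973; 6.51 and 13.4 FPKM) and TP53INP1 (0.110; 3.63 and 8.04 FPKM). For SKIL they were the pseudogene MRPS31P5 (0.0468; 1.78 and 3.54 FPKM), GABPA (0.0844) and TP53INP1 (0.0860). GABPA, an ETS-family transcription factor, and TP53INP1, a p53-inducible protein, were thus near both. For SKI the closest rows were less alike, at 0.166 for SUSD3 (2.18 and 0.935 FPKM), 0.205 for VAV2 (7.66 and 2.84 FPKM) and 0.207 for CSPG4 (5.64 and 2.71 FPKM). They were picked for this likeness, so no test applies.

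Around these 10 genes, 109 other genes of the pathway were looked up in 6 lists. Of these, 2 were not in the table and 9 were below the filter, leaving 98 loci. At an adjusted p under 0.05, 7 of the 98 were higher and 10 were lower, against 1.89% and 5.1% of all rows. With the 2-fold thresholds 1 was higher and 6 were lower, against 2.1% and 4.32%. The median log2 difference over the 98 was −0.08, as it was over all rows to 2 decimals. Leaving out 1 library in turn gave 1 to 4 higher and 0 to 6 lower. The count lower was 0 without GapC9 replicate 1, without GapC9 replicate 3 and without GapNC replicate 2. Fewer libraries also give less power, and this was not separated from the part of any single library. Of the 17 genes, CTGF passed in all 6 of these fits, ID2 in 2, 8 others in 1 and the remaining 7 in 0. The scaling also moved the split, which was 8 higher and 6 lower with median scaling, 7 and 6 with quantile normalization, and 16 and 17 with the GC correction.

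Of the 19 ligands and receptors tested, 3 were higher and 1 was lower at the adjusted threshold, with a median log2 difference of −0.20. The type II activin receptor genes ACVR2A and ACVR2B both rose. ACVR2A was at 1.45, 1.54 and 1.56 FPKM in GapNC and at 2.31, 2.40 and 2.71 FPKM in GapC9 (log2 difference 0.67, limma adjusted p = 0.0347). ACVR2B was at 1.39, 0.994 and 1.195 FPKM in GapNC and at 1.93, 2.11 and 2.07 FPKM in GapC9 (log2 difference 0.73, limma adjusted p = 0.0469). GDF15, a stress-induced ligand whose row is joined with PGPEP1, rose from a mean of 10.4 to 17.98 FPKM (limma adjusted p = 0.0477). TGFB2, a ligand near the filter, fell from 0.333, 0.277 and 0.392 FPKM to 0.119, 0.0555 and 0.107 FPKM (limma adjusted p = 0.0454). GDF11 and ENG passed the 2-fold thresholds but not the adjusted one. GDF11, an activin-like ligand, was at 2.22, 1.99 and 1.998 FPKM in GapNC and at 0.345, 1.38 and 0.226 FPKM in GapC9, with GapC9 replicate 2 apart from the other GapC9 libraries (limma adjusted p = 0.105). ENG, a coreceptor, had means of 0.192 and 0.0703 FPKM (limma adjusted p = 0.118). TGFBR2 was at 5.98, 6.08 and 6.65 FPKM in GapNC and at 2.47, 6.05 and 6.25 FPKM in GapC9, and the groups overlapped (limma adjusted p = 0.486).

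Of the 6 loci in the list of BMP SMADs and BMP receptors, 0 passed the adjusted or the 2-fold threshold, and 1, the type II receptor BMPR2, had an unadjusted limma p under 0.05. BMPR2, named after its values were seen, was at 1.585, 1.84 and 2.302 FPKM in GapNC and at 0.743, 0.990 and 1.16 FPKM in GapC9, without overlap (ratio 0.506, limma adjusted p = 0.0603). SMAD1 had means of 2.62 ± 0.338 and 2.44 ± 0.177 FPKM (SD, n = 3), SMAD5 of 7.71 ± 1.21 and 7.60 ± 2.73 FPKM, and SMAD9 of 0.646 ± 0.113 and 0.695 ± 0.0958 FPKM, in GapNC and GapC9. The groups of SMAD1, SMAD5 and SMAD9 overlapped, as did the deposited values of SMAD2, SMAD3 and the SMAD4 row.

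Among 13 partners and coactivators of SMADs, 0 were higher and 2 were lower at the adjusted threshold. ZFYVE9, also called SARA, which presents SMAD2 and SMAD3 to the receptor, was at 5.40, 6.44 and 6.35 FPKM in GapNC and at 4.14, 3.999 and 4.12 FPKM in GapC9 (log2 difference −0.55, limma adjusted p = 0.0454). RUNX1, a DNA-binding partner of SMADs, fell from 1.06, 1.14 and 1.19 FPKM to 0.716, 0.590 and 0.659 FPKM (limma adjusted p = 0.0418).

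Of 13 other corepressors, 0 were higher and 2 were lower at the adjusted threshold. NCOR1, a nuclear receptor corepressor that SKI binds, was at 7.40, 7.54 and 7.09 FPKM in GapNC and at 3.97, 4.09 and 4.38 FPKM in GapC9 (log2 difference −0.81, limma adjusted p = 0.0182). With a library left out, NCOR1 was still past the adjustment in 1 of the 6 fits.

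Among 25 regulators by ubiquitin, phosphatase or transport, 1 was higher and 2 were lower at the adjusted threshold. RNF111, or Arkadia, a ubiquitin ligase known to degrade SMAD7, SKI and SKIL proteins, shares its row with ZNF444P1 and was at 5.16, 5.86 and 5.81 FPKM in GapNC and at 8.15, 8.14 and 8.78 FPKM in GapC9 (log2 difference 0.57, limma adjusted p = 0.0366). The ligase WWP2 fell from a mean of 5.03 to 3.01 FPKM (limma adjusted p = 0.0438), and the deubiquitinase USP11 from 30.3 to 17.5 FPKM (limma adjusted p = 0.0400). These are the only members of this list past the threshold.

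Of 23 known target genes, 3 rose and 3 fell at the adjusted threshold, with a median log2 difference of 0.03. CTGF, a matricellular protein gene, was at 9.72, 10.4 and 9.26 FPKM in GapNC and at 35.1, 36.8 and 34.9 FPKM in GapC9 (log2 difference 1.85, limma adjusted p = 0.00202). CDKN1A, the gene of the cell-cycle inhibitor p21, was at 96.2, 83.1 and 85.97 FPKM in GapNC and at 149.0, 142.4 and 152.4 FPKM in GapC9 (limma adjusted p = 0.0175). CTGF and CDKN1A are genes that the pathway is known to induce, and both also respond to other pathways. ID2, a repressor of differentiation, fell from 25.4, 25.8 and 26.1 FPKM to 14.4, 13.6 and 14.3 FPKM (limma adjusted p = 0.0154). HMGA2, a chromatin protein gene, fell from a mean of 7.85 to 3.45 FPKM (limma adjusted p = 0.0166), and CDC25A, a cell-cycle phosphatase gene, from 15.03 to 8.75 FPKM (limma adjusted p = 0.0166). HMGA2 is a gene that TGF-β is known to induce, and ID2 and CDC25A are genes it is known to repress in epithelial cells, so the genes that fell include both kinds. ID1 was at 102.2, 76.2 and 82.1 FPKM in GapNC and at 55.5, 16.6 and 47.1 FPKM in GapC9, with the groups apart and a 2-fold call but a limma adjusted p of 0.151. JUNB was listed at 0 in 4 of the 6 libraries and at 46.2 and 49.3 FPKM in replicate 1 of GapNC and GapC9, so no difference is read from it.

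**Figure D5:**
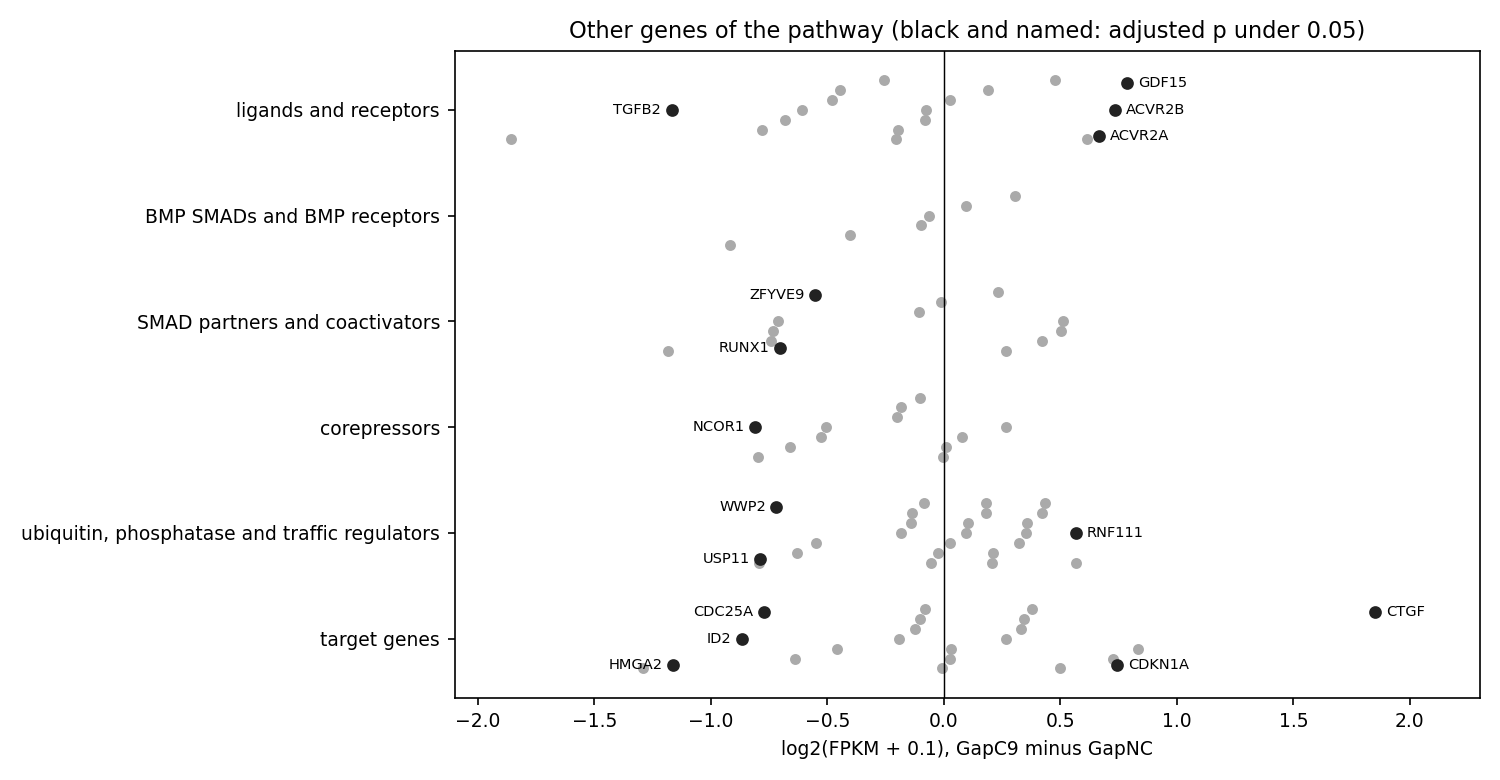
Log2 difference, GapC9 minus GapNC, of pathway loci in 6 lists (rows), each point a gene, spread vertically for legibility. Genes in black have a limma adjusted p under 0.05, and CTGF lies furthest to the right at 1.85.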

How the data were processed

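Poly(A) RNA of 6 libraries (3 GapNC, 3 GapC9) was sequenced from paired ends. The authors aligned the reads with HISAT, assembled and quantified transcripts with StringTie and deposited FPKM values in 1 table. The submitters' processing notes list HISAT2 2.0, StringTie 1.3.0 and Bowtie 0.12.2, and the mouse build mm8, while the human build is not given in the sources used here. FPKM is relative to library total and transcript length, so a rise of abundant RNAs lowers other values, and the assembly joined neighboring genes in 1063 of 27918 rows. Unused columns of per-library values numbered 0.

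Each library's group and replicate came from its labels. limma 3.58.1 in R 4.3.3 (lmFit, eBayes with trend) was fitted to log2(FPKM + 0.1) of the 16028 rows whose mean reached 0.1 FPKM, with Benjamini-Hochberg adjustment over all of them, two-sided. Calls used either the fold thresholds of the study's methods (ratio of means of at least 2 or at most 0.5, unadjusted p under 0.05) or an adjusted p under 0.05. Fold changes on this scale understate those of low genes. Ratios of related genes used exact permutation tests. Coordinates, and GC content for a correction, were read from GENCODE transcripts of GRCh38 (15909 tested rows, 99.258%), and promoter windows from RefSeq. Scripts ran in Python 3.11.15 and were tested on simulated data.

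The genes, lists and naming rule were chosen with earlier results of these data known. The rule names all 10 genes, every list gene past either call except 2 that stay in the counts but are not reported here, and the 3 rows most like SMAD7, SKIL and SKI. Alternatives were other pseudocounts, filters, scalings and variance models, a GC correction (lowess, span 0.3), the fitted fold change, a replicate block and each library left out. Replicate numbers were not used as pairs, because same-numbered libraries deviated together only weakly (correlations 0.097, 0.0398 and 0.0243). Libraries with different numbers had correlations from −0.093 to 0.0578. In both groups, however, the correlation with GC content fell from replicate 1 to replicate 3, and JUNB was above 0 only in replicate 1. Whether libraries of the same number shared a batch was not tested. Depth is unknown without counts, so precision rests on the 3 libraries of each group.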

Additional observations from a re-analysis of the deposited data

How the results depend on the processing

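SMAD7 and SKIL stayed higher and SKI lower under every alternative tried, whereas the adjusted calls did not all hold. Of the 10 genes, 2 passed the adjusted threshold upward, falling to 1 with no filter (SMAD7 at adjusted p = 0.0568), to 0 with the replicate block (SMAD7 and SKIL both at 0.0607) and to between 0 and 2 when a library was left out. In those fits the log2 difference ran from 0.943 to 1.202 for SMAD7 and from 0.96 to 1.12 for SKIL. The GC correction left 1 gene called higher at 2-fold, SMAD7, and without GapNC replicate 1 the count called lower at 2-fold was 0 (0 to 1 over the libraries left out).

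For the pathway lists, the 7 higher and 10 lower calls became 16 and 17 with the GC correction, 2 and 5 with no filter, 0 and 0 with the replicate block, and 1 to 4 and 0 to 6 with a library left out. The higher calls were 3 without the trend, and the lower calls were 6 with median scaling and 6 with quantile normalization. Over all rows, the 336 higher calls at 2-fold became 116 with a filter of 1 FPKM and 555 with none, and the 693 lower calls became 380 with that filter and 412 with the GC correction. The 303 higher and 817 lower adjusted calls became 1103 and 1242 with the GC correction, 146 and 346 with no filter and 0 and 0 with the replicate block; leaving out a library gave 16 to 241 and 17 to 573, and they were 362 and 511 with median scaling and 347 and 516 with quantile normalization. The replicate block spends 2 degrees of freedom on replicate numbers, by which the libraries deviated together only weakly. With it the standard error fell from 0.183 to 0.139 for SMAD7 and from 0.145 to 0.128 for SKIL. Among the 10 genes it rose only for SMAD6, from 0.224 to 0.232. The cause of the moves in the calls was not tested.

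Some differences near 0 changed sign. SMAD3 was at 0.105 with the GC correction, 0.0967 with median scaling, 0.0445 with quantile normalization, 0.0265 with sum scaling and −0.0799 to 0.111 with a library left out, above 0 without GapC9 replicate 2 and without GapNC replicate 3. SMURF2 was at −0.0527 with the GC correction. With a library left out, TGIF1 ran from −0.001 to 0.0827, SMURF1 from −0.059 to 0.434 and SMURF2 from −0.173 to 0.129. The log2 ratio of SMAD4 to SMAD3 was −0.0301 with the GC correction and −0.0156 to 0.209 with a library left out, and that of SMURF1 to SMURF2 ran from −0.189 to 0.615.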
